A study of Mus musculus with 4 samples.

Results

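A group of 10 genes of maternal mRNA storage and translational control were followed through meiotic maturation of the mouse oocyte, with and without tubastatin A (TubA), a small molecule made to inhibit the cytoplasmic deacetylase HDAC6. They were taken by name (*Zar1*, *Zar1l*, *Ybx2*, *Cpeb1*, *Dazl*, *Zfp36l2*, *Ddx6*, *Lsm14b*, *Eif4enif1* and *Eif4e1b*), and all 10 were found among the 21957 genes of the expression table. Of these mRNAs, *Zar1l* changed most. Its level was 722.1 FPKM at the germinal vesicle (GV) stage, and it fell to 124.9 FPKM in metaphase II (MII) oocytes and to 59.2 FPKM with the higher dose of TubA. *Ybx2* fell past 2-fold in each of the 3 cultured conditions as deposited, while *Cpeb1* and *Eif4e1b* fell past 2-fold against GV with the higher dose. *Dazl* rose past 2-fold there as deposited (2.09-fold), though not relative to the median gene.

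All oocytes came from B6D2F1 (C57BL/6 x DBA) females aged 6 to 8 weeks that had received pregnant mare serum gonadotropin, and their cumulus cells were removed with hyaluronidase. GV oocytes were taken at 0 h. The other oocytes were cultured in M16 medium for 12 h without TubA (MII) or with 10 μM (TubA-10) or 20 μM (TubA-20) of it. Untreated oocytes counted as MII only if they had a polar body, a selection that is not described for the TubA oocytes. TubA was dissolved in DMSO, and the labels call the MII oocytes untreated and name no solvent control. The doses follow the sample titles and the methods, while another field of the labels has 20 μM at TubA-10 and 11 μM at TubA-20. The title of the MII sample calls it an embryo.

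Each condition was 1 library from a pool of 100 oocytes by the methods, so there was no replicate error to judge a difference by, and no p-value is given. All changes are log2 ratios of FPKM + 1, FPKM being the fragments of a gene per length of transcript and per depth of library. A gene is said to rise or fall when this ratio passed 2-fold (1 on the log2 scale). Since FPKM is a share of a library, fewer copies of one mRNA and more of all others cannot be told apart. Because the RNA was selected with oligo(dT), a change in mRNA amount and a change in poly(A) tail length cannot be told apart either.

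A growing oocyte makes and stores mRNA, and then matures and is fertilised with little or no transcription, so that it depends on when stored mRNAs are translated and destroyed. Stored mRNAs have short poly(A) tails and are bound by repressors. CPEB1 binds the cytoplasmic polyadenylation element (CPE), a U-rich sequence in the 3′ UTR near the polyadenylation signal, and first helps to keep such mRNAs silent and then, once phosphorylated, brings about the lengthening of their tails. ZAR1, ZAR1L and YBX2 (MSY2) bind maternal mRNAs and stabilise them, whereas DDX6, LSM14B, 4E-T (the product of *Eif4enif1*) and the oocyte form of the cap-binding protein, eIF4E1B, belong to repressive complexes on the cap and the mRNA.

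Whether the genes themselves carry a CPE was read from the reference annotation (GENCODE M21, build GRCm38, principal transcript), with CPE meaning TTTTAT or TTTTAAT and polyadenylation signal AATAAA or ATTAAA on the sense strand. *Zar1l* has an annotated 3′ UTR of 14 bases, too short to search. In the last 100 bases of the transcript, 1 of the 9 others held a CPE, against 17.9% of 19166 genes, and 8 of 9 held a polyadenylation signal, against 79.0%. Of 11 mRNAs known for translation during maturation, 4 held a CPE in this window, and the rest did not. The stretch around the CPE of *Ybx2*, which starts 62 bases from the transcript end, is shown with those of the tissue plasminogen activator gene *Plat*, *Btg4* and *Orc6*, mRNAs known for translation during maturation, at chr11:69941532-69941561 (+), chr8:22782744-22782773 (+), chr9:51119797-51119826 (+) and chr8:85308005-85308034 (+). Capitals mark the CPE and sequences run 5′ to 3′.
Ybx2: cctctgaagccaTTTTATgaactgtcatgt
Plat: agtatatttataTTTTAATctattttagtt
Btg4: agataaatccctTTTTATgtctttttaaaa
Orc6: tggttttttaaaTTTTATttcactaaatgt

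*Ybx2* held neither form of the polyadenylation signal in its 414-base 3′ UTR. *Lsm14b* held the signal 21 bases from the transcript end. So did 3 members shown here, *Zar1* at chr5:72577117-72577146 (−), *Eif4e1b* at chr13:54788427-54788456 (+) and *Dazl* at chr17:50279400-50279429 (−). All 3 lie in the 3′ UTR, and these genes have no CPE in the last 100 bases. Capitals mark the signal.
Zar1: ataaagcctgtgAATAAAaggtattgcaaa
Eif4e1b: tttctgtatctaAATAAAcacttctggaac
Dazl: cttgtatacacgAATAAAacctttttttca

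Further upstream, CPE words were present in most of the longer 3′ UTRs. *Ddx6* held 7 in 4250 bases, *Dazl* 6 in 1852, *Cpeb1* 4 in 1315, *Zfp36l2* 4 in 1822, *Lsm14b* 2 in 1177 and *Eif4enif1* 1 in 499. *Zar1* (146 bases) and *Eif4e1b* (1063 bases) held none. The last CPE of *Cpeb1* began 249 bases from the end and that of *Dazl* 373 bases from it, outside the window in which CPEs were counted. The Pumilio word TGTANATA, the AU-rich word TATTTAT and the word TTTGTTT, a DAZL motif, were absent from the last 100 bases of all 9, against 4.35%, 4.30% and 6.14% of all genes. In the last 200 bases, 1 of 8 members held the Pumilio word (7.34% of genes) and 1 of 8 the DAZL motif (10.4%). Over the whole 3′ UTR, the Pumilio word stood 2 times in *Ddx6* and *Eif4enif1* and 1 time in *Cpeb1* and *Lsm14b*. The DAZL motif stood 2 times in *Zfp36l2* and 1 time in *Ybx2*, *Cpeb1*, *Ddx6* and *Dazl*. The AU-rich word, of the kind that ZFP36L2 binds, stood 3 times in the 3′ UTR of *Zfp36l2* itself, 2 times in that of *Dazl* and 1 time in that of *Cpeb1*. These matches describe the annotated sequence and not the 3′ ends used in these oocytes.

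**Figure D1:**
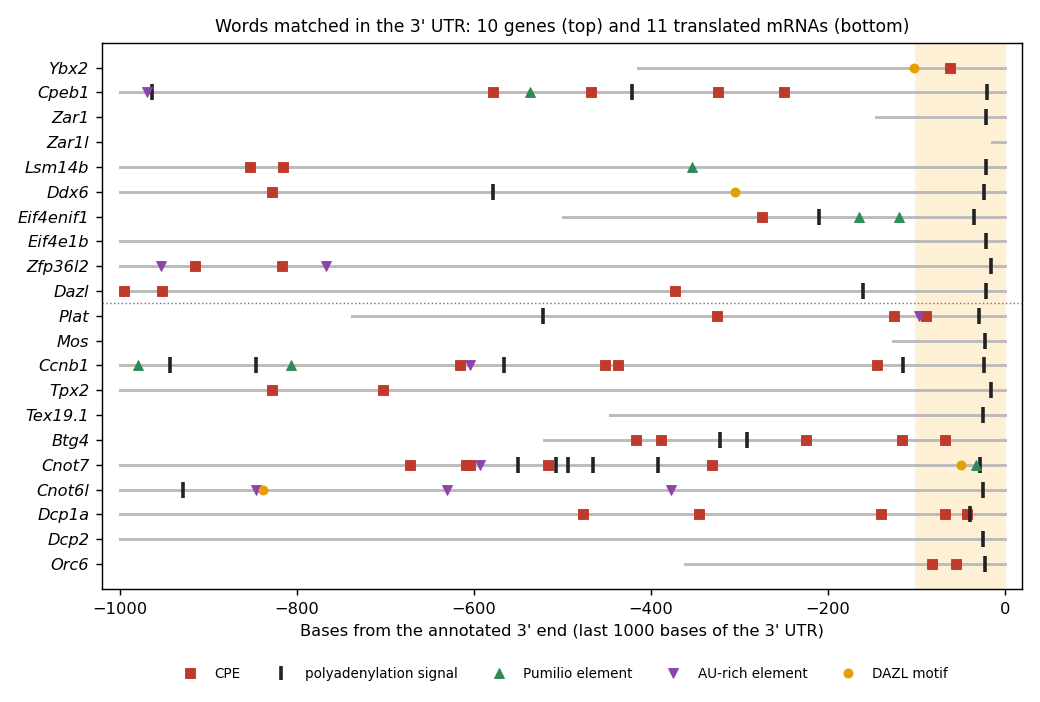
Positions of CPE words, polyadenylation signals and the 3 other words in the distal part of the annotated 3′ UTRs (grey lines) of the 10 genes and of the 11 mRNAs known to be translated during maturation, as bases from the transcript end. The shaded band is the last 100 bases. Among the members searched, *Ybx2* has a CPE within 100 bases of the end, and 8 of 9 have a polyadenylation signal there.

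The 10 mRNAs together held 0.470% of all FPKM in GV (2928), 0.503% in MII (2858), 0.519% with TubA-10 (3068) and 0.442% with TubA-20 (2773). *Zar1* supplied 48.1% of that sum in GV, 70.0% in MII, 68.9% with TubA-10 and 70.2% with TubA-20. The other 9 together took 0.244% of all FPKM in GV and less afterwards, with 0.151% in MII, 0.161% with TubA-10 and 0.132% with TubA-20. Most of this drop was that of *Zar1l* alone (722.1 FPKM in GV, then 124.9, 159.7 and 59.2), so it does not describe the 9 as a group. Of the 10, 8 had at least 10 FPKM in every library. The order of levels was *Zar1* first in all 4 libraries, with *Eif4e1b*, *Ddx6* and *Zfp36l2* in the last 3 places of all 4. *Zar1l* stood at rank 2 in GV, 5 in MII, 4 with TubA-10 and 7 with TubA-20, and *Dazl* moved from rank 5 to rank 2 in each cultured library. Without replicates it cannot be said which neighbours in this order differ.

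**Figure D2:**
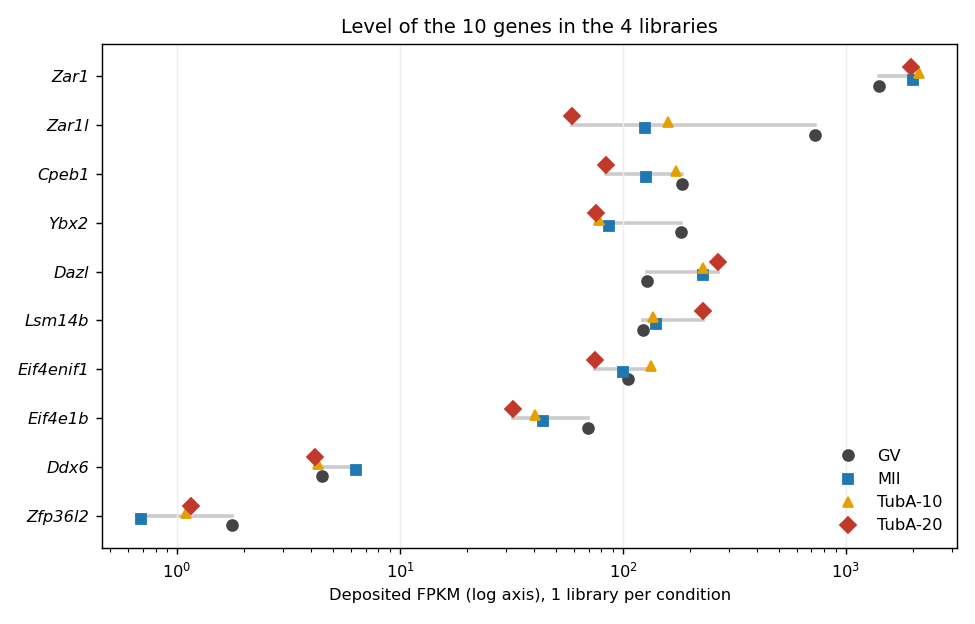
FPKM of the 10 genes in each of the 4 libraries on a log axis, 1 point a library. *Zar1* is highest throughout, *Zar1l* drops from 722.1 FPKM to between 59.2 and 159.7, and *Ddx6* and *Zfp36l2* lie under 10 FPKM.

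In MII against GV, 2 of the 10 genes fell past 2-fold and 0 rose, where 8.34% of all genes fell and 3.05% rose, or 22.2% and 9.39% of the 6156 expressed genes, meaning those that reached 10 FPKM in either library of the comparison. TubA-10 against GV gave the same counts, 2 lower and 0 higher (5.60% and 0.742% of all genes, 15.5% and 1.84% of the expressed genes). In TubA-20 against GV, 4 fell and 1 rose, beside 11.7% lower and 7.61% higher among all genes and 27.7% and 22.7% among the 6283 expressed genes. Of the 8 members that count as expressed, 2 fell in MII, 2 with TubA-10 and 4 with TubA-20. Among 10 oocyte marker genes, 1 fell in MII against GV, 0 with TubA-10 and 5 with TubA-20 (*Zp1*, *Zp2*, *Zp3*, *Figla* and *Padi6*). Of the same markers, 1 rose in MII (*Bmp15*), 0 with TubA-10 and 1 with TubA-20 (*Gdf9*). Against MII, no member passed 2-fold with TubA-10 (0.515% of all genes higher and 0.128% lower, 1.34% and 0.193% of the expressed genes), and 1 fell with TubA-20 (2.44% lower and 0.328% higher, 6.03% and 0.463% of the expressed genes). Between the doses, 2 members were lower with TubA-20 than with TubA-10 (5.52% of all genes lower and 0.660% higher, 14.3% and 1.62% of the expressed genes). Against GV the 10 genes had median log2 changes of −0.30 (MII), −0.07 (TubA-10) and −0.42 (TubA-20), where the medians of all genes that reached 1 FPKM were 0.04, 0.08 and 0.08. The 3 comparisons with GV share the GV library, so their likeness is no separate evidence.

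The scale of the libraries matters for values near 2-fold. Over the 9193 genes that reached 1 FPKM in all 4 libraries, the median gene stood above GV by 0.14 log2 in MII, 0.16 with TubA-10 and 0.23 with TubA-20. Relative to that median gene, *Zar1l* stood at −2.66, −2.33 and −3.81, *Ybx2* at −1.21, −1.38 and −1.48, and, with TubA-20, *Cpeb1* at −1.35 and *Eif4e1b* at −1.32.

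**Figure D3:**
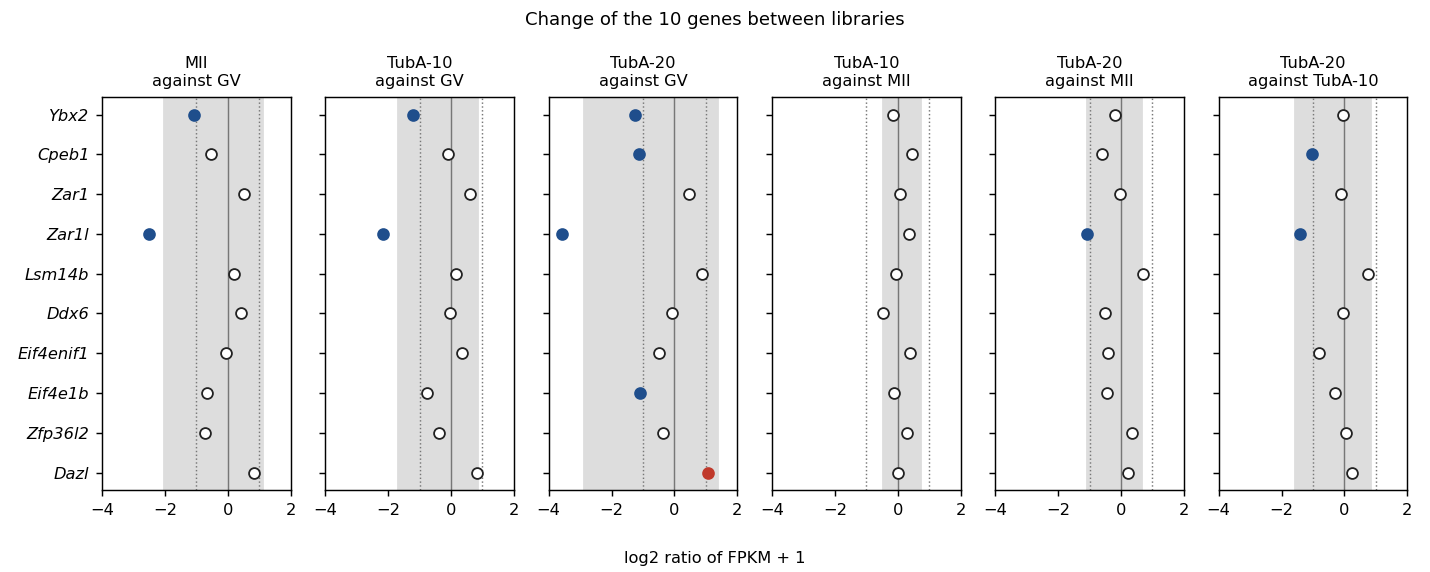
Log2 change of each of the 10 genes in the 6 comparisons of FPKM + 1, filled points past 2-fold and grey bars for the 5% to 95% range of all expressed genes (10 FPKM or more in either library). *Zar1l* lies below the grey bar in all 3 comparisons with GV, and the members other than *Zar1l* lie inside it there.

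*Zar1* encodes an oocyte RNA-binding protein needed to stabilise maternal mRNA and to pass from oocyte to embryo. Its gene lies at chr5:72576806-72581254 on the minus strand (ENSMUSG00000063935.3). It measured 1408 FPKM (GV), 2000 (MII), 2115 (TubA-10) and 1947 (TubA-20), above 99.7% to 99.9% of the genes listed above 0 in each library. The cultured libraries were higher than GV by 0.51, 0.59 and 0.47 on the log2 scale, all short of 2-fold, and TubA-20 differed from MII by −0.04.

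*Zar1l*, its close relative with the same zinc finger end, lies at chr5:150507055-150518164 on the minus strand (ENSMUSG00000056586.8). It measured 722.1 FPKM in GV, 124.9 in MII, 159.7 with TubA-10 and 59.2 with TubA-20. GV was the highest library and TubA-20 the lowest, with GV 5.78-fold above MII, 4.52-fold above TubA-10 and 12.2-fold above TubA-20. On the log2 scale these falls were −2.52, −2.17 and −3.59, and only 1.33%, 1.46% and 1.27% of expressed genes fell further. With TubA-20, *Zar1l* was also lower than in MII (−1.07, with 5.09% of genes further down) and lower than with TubA-10 (−1.42, with 7.08% further down). Under all 6 alternative pseudocounts and scalings, every one of these 5 falls stayed past 2-fold.

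Within the pair, *Zar1l* made up 33.9% of the summed FPKM in GV, 5.88% in MII, 7.02% with TubA-10 and 2.95% with TubA-20. The sum of both as deposited was 2130, 2125, 2275 and 2006 FPKM, and its course depends on how libraries are scaled. *Zar1* was 1.95 times the level of *Zar1l* in GV, 16.0 times in MII, 13.2 times with TubA-10 and 32.9 times with TubA-20. Such ratios within a library do not depend on how libraries are scaled.

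*Ybx2* encodes MSY2, the germ cell Y-box protein that coats and protects maternal mRNAs, and lies at chr11:69935796-69941605 on the plus strand (ENSMUSG00000018554.13). It measured 181.9 FPKM (GV), 86.2 (MII), 77.7 (TubA-10) and 75.4 (TubA-20). The 3 cultured libraries lay close together and below GV, by −1.07, −1.22 and −1.26. The 2-fold call in MII was lost when libraries were set to equal FPKM sums (−0.94) or equal *Gapdh* (−0.84), and that in TubA-10 at equal *Gapdh* (−0.95). Between MII and TubA-20 the difference was −0.19. These falls were within the range of many expressed genes, of which 20.9%, 11.3% and 24.2% fell further.

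*Ybx1*, the widely expressed relative, measured 249.3 FPKM in GV, 301.6 in MII, 233.3 with TubA-10 and 419.0 with TubA-20. *Ybx3* measured 368.3, 248.6, 184.2 and 193.5 in the same order, below GV in every cultured library as *Ybx2* was, though none of these differences passed 2-fold. *Ybx2* thereby went from 22.8% of the family sum in GV to 13.6%, 15.7% and 11.0%, and *Ybx1* from 31.2% to 47.4%, 47.1% and 60.9%. *Ybx1* was 1.37 times *Ybx2* in GV and 5.55 times in TubA-20.

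*Cpeb1*, which encodes the CPE-binding protein itself, lies at chr7:81347026-81455465 on the minus strand (ENSMUSG00000025586.17). It measured 184.5 FPKM in GV, 127.2 in MII, 172.5 with TubA-10 and 83.8 with TubA-20. GV and TubA-10 lay close together and TubA-20 was lowest, 2.20-fold below GV (−1.13) and 2.06-fold below TubA-10 (−1.03). Both falls stayed past 2-fold under the 6 alternatives, from −1.35 to −1.06 and from −1.23 to −1.03. MII differed from GV by −0.53 and TubA-20 from MII by −0.60, neither past 2-fold. The change from GV to TubA-10 was −0.10 as deposited and 0.17 with equal *Gapdh*, so it has no set direction. Of all expressed genes, 26.1% fell further than *Cpeb1* from GV to TubA-20.

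*Cpeb1* was 90.2% of the summed CPEB mRNAs in GV, 78.9% in MII, 86.4% with TubA-10 and 68.6% with TubA-20. *Cpeb4*, which takes over from CPEB1 late in meiosis, measured 6.27, 14.6, 10.8 and 15.4 FPKM in the same order, and its share went from 3.07% in GV to 12.6% in TubA-20. *Cpeb3* measured 13.2, 18.8, 15.9 and 22.5 FPKM and reached 18.4% in TubA-20, while *Cpeb2* stayed between 0.431 and 0.551 FPKM.

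*Dazl* encodes a germ cell RNA-binding protein that, with CPEB1, promotes translation of mRNAs during maturation. The gene lies at chr17:50279395-50293636 on the minus strand (ENSMUSG00000010592.8). It measured 127.7 FPKM (GV), 227.7 (MII), 228.1 (TubA-10) and 267.5 (TubA-20). All 3 cultured libraries lay above GV and close to each other. The rise passed 2-fold in TubA-20 (1.06, 2.09-fold), a call that was lost relative to the median gene (0.84), and measured 0.83 in both MII and TubA-10, which passed 2-fold only with equal *Gapdh* (1.06 and 1.10). TubA-10 and MII differed by 0.00. In TubA-10 against GV, 5.82% of expressed genes stood higher than *Dazl*, and in TubA-20 against GV 20.3% did. *Dazl* stood at 0.692 times *Cpeb1* in GV, 1.79 times in MII, 1.32 times with TubA-10 and 3.19 times with TubA-20.

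*Zfp36l2* encodes a protein that binds AU-rich elements and hastens mRNA decay, and it is needed for the oocyte to fall silent in transcription. The gene lies at chr17:84183931-84187947 on the minus strand (ENSMUSG00000045817.8). It was the lowest of the 10, at 1.76 FPKM in GV, 0.688 in MII, 1.10 with TubA-10 and 1.15 with TubA-20. The log2 changes against GV were −0.71, −0.39 and −0.36. They depend on the pseudocount, since MII against GV became −1.24 with a pseudocount of 0.1. An estimated 49 to 90 fragments a library lay behind these values, and a gene on the other strand overlaps an exon. Its relative *Zfp36* measured 1.45, 1.82, 1.66 and 2.75 FPKM, *Zfp36l1* measured at most 0.266 FPKM and *Zfp36l3* was listed at 0.

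Of the repressive complex, *Lsm14b*, whose product is abundant in oocyte mRNA granules, stood highest with TubA-20. It lies at chr2:180024987-180035465 on the plus strand (ENSMUSG00000039108.14) and measured 122.4 FPKM (GV), 140.9 (MII), 136.4 (TubA-10) and 227.8 (TubA-20). GV, MII and TubA-10 lay together and TubA-20 stood apart, at 1.86 times GV (0.89), 1.62 times MII (0.69) and 1.67 times TubA-10 (0.74). None of these passed 2-fold. Among expressed genes, 4.06% stood higher than *Lsm14b* in TubA-20 against MII and 9.15% in TubA-20 against TubA-10. Its relative *Lsm14a*, at 135.6 FPKM in GV, rose in MII (285.7 FPKM, 1.07) and with TubA-20 (327.2 FPKM, 1.26), and measured 213.5 with TubA-10. The MII call of *Lsm14a* was lost relative to the median gene. The share of *Lsm14b* in the pair was 47.4% in GV, 33.0% in MII, 39.0% with TubA-10 and 41.1% with TubA-20.

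*Ddx6*, a DEAD-box helicase at the centre of the repressive complex, lies at chr9:44604892-44640731 on the plus strand (ENSMUSG00000032097.9). It measured 4.45 FPKM in GV, 6.33 in MII, 4.29 with TubA-10 and 4.14 with TubA-20. MII was the highest library and the other 3 lay together, with TubA-20 at −0.51 against MII. No difference passed 2-fold. An estimated 314 to 776 fragments a library lay behind these values.

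*Eif4enif1*, whose product 4E-T bridges the cap-binding protein to DDX6 and LSM14, lies at chr11:3202392-3244588 on the plus strand (ENSMUSG00000020454.17). It measured 104.9 FPKM (GV), 100.2 (MII), 132.8 (TubA-10) and 75.0 (TubA-20). TubA-10 was highest and TubA-20 lowest, at −0.82 between them, which passed 2-fold only with equal *Gapdh* (−1.01). The MII value differed from GV by −0.07 as deposited and by 0.16 with equal *Gapdh*, so no direction can be given.

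*Eif4e1b*, the oocyte cap-binding protein that 4E-T holds, lies at chr13:54783998-54788459 on the plus strand (ENSMUSG00000074895.10). It measured 69.9 FPKM in GV, 43.8 in MII, 40.2 with TubA-10 and 32.2 with TubA-20. GV was highest, and the falls were −0.66, −0.78 and −1.10, of which the last, 2.17-fold, passed the threshold under all 6 alternatives, from −1.32 to −1.03. With TubA-20 it differed from MII by −0.44.

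Among the eIF4E mRNAs, the balance moved further than *Eif4e1b* itself. *Eif4e*, the general cap-binding protein, measured 124.1 FPKM (GV), 55.2 (MII), 102.1 (TubA-10) and 52.6 (TubA-20). *Eif4e2*, which encodes the repressive cap-binding protein 4EHP, measured 84.3 FPKM in GV and between 10.9 and 17.6 in the cultured libraries. *Eif4e3*, in the order GV, MII, TubA-10, TubA-20, measured 191.6, 369.9, 284.3 and 424.0. The share of *Eif4e1b* in the family sum went from 14.9% in GV to 9.11%, 9.05% and 6.19%, that of *Eif4e2* from 17.9% to 2.50%, 3.96% and 2.10%, and that of *Eif4e3* from 40.8% to 76.9%, 64.0% and 81.6%. *Eif4e3* was 2.74 times *Eif4e1b* in GV and 13.2 times in TubA-20.

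**Figure D4:**
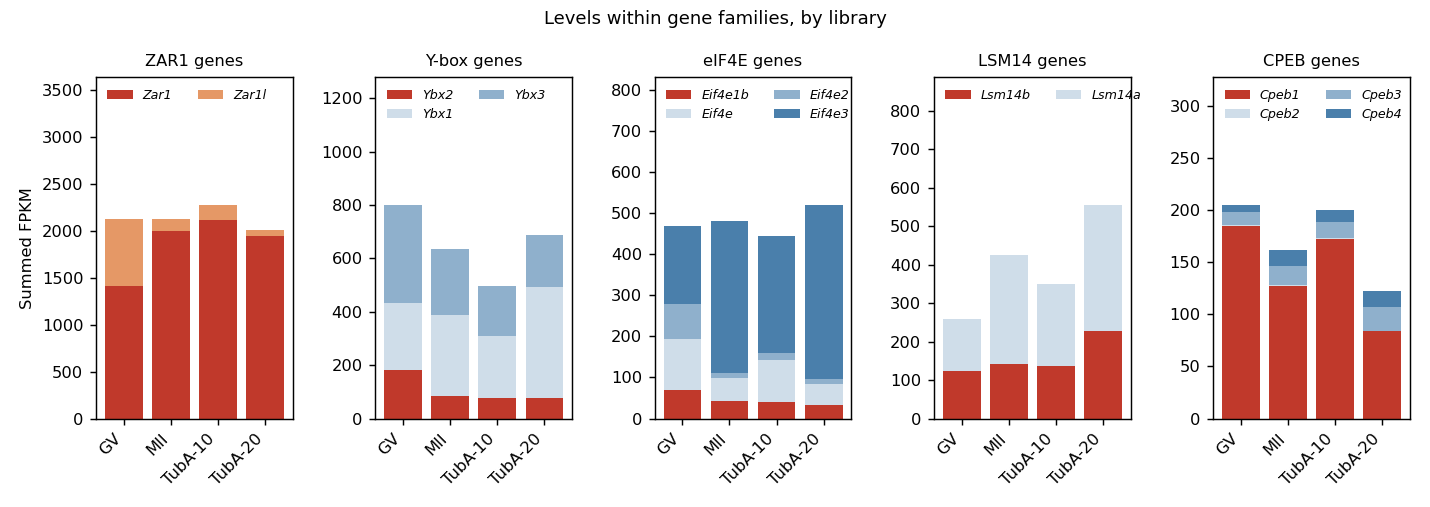
Stacked FPKM of the genes of 5 families in the 4 libraries, members in red or orange and relatives in blue. *Zar1l* shrinks from 33.9% to 2.95% of its pair, *Ybx2* from 22.8% to 11.0%, *Cpeb1* from 90.2% to 68.6% and *Eif4e1b* from 14.9% to 6.19% between GV and TubA-20.

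Of 42 other mRNA storage and repression proteins, 3 fell and 2 rose in MII against GV, with a median of 0.16, and 4 fell and 6 rose in TubA-20 against GV, with a median of 0.25. With TubA-10, 2 fell and 0 rose. Among all genes 8.34% fell and 3.05% rose in MII, 5.60% and 0.742% with TubA-10, and 11.7% and 7.61% with TubA-20. Of the expressed genes, 22.2% fell and 9.39% rose in MII, 15.5% and 1.84% with TubA-10, and 27.7% and 22.7% with TubA-20. Of the 42, 34 reached 1 FPKM in either library of each comparison. The falls in MII were *Eif4e2* (−2.71), *Eif4ebp3* (−1.30, from 11.3 to 3.97 FPKM) and *Eif4e* (−1.16), and the rises were *Cpeb4* (1.10) and *Lsm14a* (1.07). Relative to the median gene neither rise passed 2-fold, and with equal *Gapdh* the fall of *Eif4e* did not (−0.93). In TubA-20 the largest falls were *Eif4e2* (−2.84), *Eif4ebp3* (−2.68, to 0.906 FPKM) and *Patl2* (−1.62, from 44.3 to 13.7 FPKM), an oocyte translational repressor. In TubA-20 against MII, 1 of the 42 fell and 0 rose (2.44% and 0.328% of all genes, 6.03% and 0.463% of the expressed genes). That gene, *Eif4ebp3* (−1.38), was under 10 FPKM in both libraries and is named after its value was seen.

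Of 11 mRNAs known for translation during maturation, 3 rose in MII against GV and 4 in TubA-20 against GV, and none fell. With TubA-10, 1 rose. Among all genes 3.05% rose and 8.34% fell in MII, 0.742% and 5.60% with TubA-10, and 7.61% and 11.7% with TubA-20. Of the expressed genes, 9.39% rose and 22.2% fell in MII, 1.84% and 15.5% with TubA-10, and 22.7% and 27.7% with TubA-20. Against GV their medians were 0.67 (MII), 0.55 (TubA-10) and 0.89 (TubA-20), beside 0.04, 0.08 and 0.08 over all genes. The rises in MII were the decapping enzyme *Dcp2* (1.15, from 80.3 to 179.8 FPKM) and the deadenylase subunits *Cnot6l* (1.14, from 102.6 to 227.8) and *Cnot7* (1.05, from 119.6 to 248.1). In TubA-20 they were *Dcp2* (1.79), *Cnot6l* (1.52), *Cnot7* (1.22) and cyclin B1 (*Ccnb1*, 1.23, from 393.6 to 926.7). The rises of *Cnot7* were lost relative to the median gene. Against MII none passed 2-fold at either dose. With TubA-20, 0.328% of all genes rose and 2.44% fell (0.463% and 6.03% of the expressed genes). With TubA-10, 0.515% and 0.128% did (1.34% and 0.193% of the expressed genes). The median of the 11 against MII was 0.28 for TubA-20 and −0.27 for TubA-10.

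Of 9 genes of the cytoplasmic polyadenylation machinery, 2 fell and 1 rose in MII against GV, and 4 fell and 2 rose in TubA-20 against GV, with medians of −0.41 and −0.95. Among all genes 8.34% fell and 3.05% rose in MII, and 11.7% and 7.61% with TubA-20. Of the expressed genes, 22.2% fell and 9.39% rose in MII, and 27.7% and 22.7% with TubA-20. Not all of the 9 count as expressed, and the calls with at least 10 FPKM in either library were 2 in MII and 5 with TubA-20. With TubA-10, 2 of the 9 fell and 0 rose (5.60% and 0.742% of all genes, 15.5% and 1.84% of the expressed genes). *Cpsf4*, a subunit of the factor that recognises the polyadenylation signal, fell to 6.60 FPKM in MII (−1.92) and 3.04 with TubA-20 (−2.83), both against 27.7 in GV. *Cpsf3* fell to 9.83 FPKM from 34.2 in TubA-20 (−1.70). *Pabpc1l*, the oocyte poly(A)-binding protein, measured 69.1 FPKM in GV, 51.9 in MII, 69.9 with TubA-10 and 21.8 with TubA-20. The last was lower than both GV (−1.62) and MII (−1.22). *Tent2*, the cytoplasmic poly(A) polymerase, rose in TubA-20 (1.38, from 33.2 to 88.4 FPKM), and *Cpsf2* rose in MII (1.07, from 7.57 to 17.0), a call lost relative to the median gene.

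**Figure D5:**
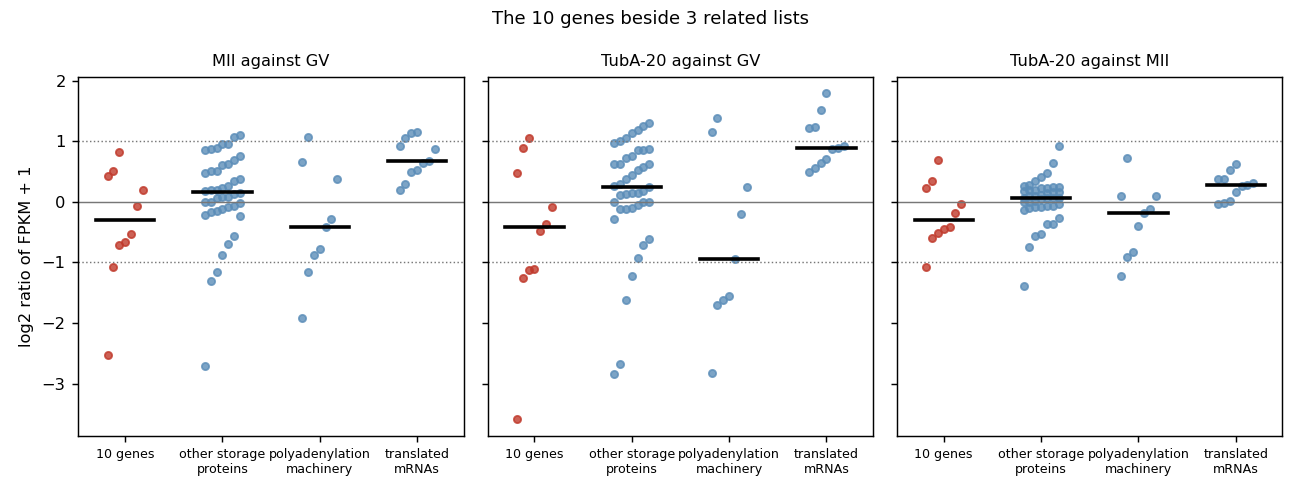
Log2 changes of the 10 members and of the genes of the 3 related lists against GV and MII, 1 point a gene, with bars for the median of each list and dotted lines at 2-fold. The 11 mRNAs known for translation lie above 0 in both MII and TubA-20 against GV, and the polyadenylation machinery has a median of −0.95 in TubA-20 against GV.

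The mRNAs with a CPE word near their annotated end had higher medians against GV than those without. The classes rest on the word alone, and binding by CPEB1 was not measured. mRNAs with CPE words only further upstream count as without, such as *Ccnb1*, whose last one starts 144 bases from the end. In MII against GV the median was 0.55 for 1242 genes with a CPE in the last 100 bases and 0.03 for 4486 without among expressed genes. Of the CPE genes 14.8% rose and 10.5% fell, and of the others 8.43% and 22.6%. Against GV the gap between the medians was 0.52 (MII), 0.26 (TubA-10) and 0.66 (TubA-20), and against MII it was 0.13 for TubA-20 and −0.18 for TubA-10. In TubA-10 against GV 1.51% of the CPE genes rose and 1.95% of the others, and in TubA-20 34.9% and 20.5%. Scaling a library shifts both medians alike. The CPE genes also had more A and T in those bases (median 71.0% against 63.0%) and longer 3′ UTRs (948.5 against 864.5 bases in MII against GV), and the part of either in the gap was not tested.

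Genes with patterns most like 2 of the members were found by the Euclidean distance between log2 changes over the 4 libraries, among 6367 genes that reached 10 FPKM anywhere. Nearest to *Zar1* were *Klhl15* (0.04), *Ppa2* (0.07) and *Fsd1* (0.07). Nearest to *Cpeb1* were *Chmp1a* (0.06), *Ablim1* (0.06) and *Recql5* (0.10). With 4 libraries, many genes share such a course.

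Read counts are not used here, so depth was estimated from the smallest steps between FPKM values. Relative to GV, depth was 1.62 in MII, 1.70 with TubA-10 and 0.897 with TubA-20 from ratios between libraries, and 1.39, 1.50 and 0.860 from the lowest values within each, which also gave the fragment numbers above. Both are rough. They put TubA-20 below GV, while the read totals given in the paper put TubA-20 above GV, so which was deeper is not settled. Between 14434 and 15440 genes were listed above 0 in a library. All 10 oocyte markers were above 1 FPKM in every library, from 12.4 to 3822 FPKM. The 13 cumulus and granulosa cell markers summed to 155.5 FPKM in GV, 300.5 in MII, 251.9 with TubA-10 and 422.8 with TubA-20. Nearly all of this was *Serpine2* and *Cyp19a1*. The other 11 summed to 11.8 FPKM in GV, 5.35 in MII, 3.18 with TubA-10 and 6.63 with TubA-20. *Foxl2* was listed at 0 in all 4 libraries, and 2 to 4 of the 13 were at 0 in a library. The 7 blood markers summed to at most 2.26 FPKM, with the hemoglobin genes at 0. The granulosa sum, like the levels of *Lsm14b* and *Dazl*, was lowest in GV and highest with TubA-20. That order was the order of *Serpine2* (137.7 FPKM in GV and 405.9 with TubA-20), while the other 11 summed highest in GV. Most of their GV sum was *Inha* alone, so it does not describe the 11 as a group. Of the 13 cumulus and granulosa markers, 1 fell past 2-fold in TubA-20 against GV (*Inha*). In the same comparison 3 rose (*Ptx3*, *Tnfaip6* and *Serpine2*), of which *Ptx3* and *Tnfaip6* were listed at 0 in GV. The part of such cells in the levels of *Lsm14b* and *Dazl* was not tested.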

How the data were processed

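RNA-seq was done on 4 oocyte libraries, GV, MII, TubA-10 and TubA-20, 1 per condition. The authors deposited 1 table of FPKM values from Cufflinks (strand-specific, paired ends, mm10), so each value was already divided by transcript length and by mapped fragments. STAR 2.5.0 and Cuffdiff 2.2.1 also stand in the submitters' processing notes. Labels name TRIzol and the methods another kit for the RNA, and the paper writes of pools and of single oocytes. Columns were mapped by title.

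Symbols, coordinates and 3′ UTRs were joined from GENCODE M21 by identifier. Of 21959 entries, 165 had no symbol and were kept under their identifier, and entries sharing a symbol were summed. Log2 ratios of FPKM + 1 were taken without a test, and genes past 2-fold were counted. The members and lists were chosen with earlier results of these data known. Named genes were the members, their close relatives and, per list and comparison (MII or TubA-20 against GV, TubA-20 against MII), at most the 4 largest changes past 2-fold with at least 10 FPKM. *Eif4e3* was added after its values were seen. Mitochondrially encoded genes, 13 in the table, were mostly listed at 0. Alternatives were 2 pseudocounts, 4 scalings, filters, a 3-fold threshold, other windows and transcripts, and, added after seeing the data, the scalings for the lists. Some items are not reported here. Scripts were tested on simulated data. Python 3.11.15, numpy 2.4.6, pandas 2.3.3 and matplotlib 3.10.9 were used.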

Additional observations from a re-analysis of the deposited data

Results flagged for a closer look

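For 6 results the values at the 2 TubA doses lay on opposite sides of the same reference, under the deposited scale and all 6 alternative pseudocounts and scalings. With 1 library a dose, none of these differences was tested. Against MII, *Zar1l* was at 0.35 with TubA-10 and −1.07 with TubA-20, a difference of −1.42, and *Cpeb1* was at 0.44 and −0.60, a difference of −1.03. *Lsm14b* went the other way, at −0.05 and 0.69, a difference of 0.74. *Eif4enif1* was at 0.40 and −0.41 against MII and at 0.34 and −0.48 against GV, a difference of −0.82 both times. *Zar1* was at 0.08 and −0.04 against MII, a difference of −0.12 as deposited and −0.19 relative to the median gene. The doses share the MII and GV libraries, so the 2 flags of *Eif4enif1* rest on the same difference.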

How the results depend on the processing

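Of 360 recomputed single-gene changes (60 results under 6 alternatives), 339 kept direction and side of 2-fold, 4 lost and 5 gained the call, 12 changed the sign of an uncalled value, and 0 called values reversed. With pseudocounts of 0.1 and 0.01, 3 members were lower in MII against GV, and with equal *Gapdh* 3 were lower with TubA-20 than with TubA-10. With equal *Gapdh*, 1 member was higher and 1 lower in both MII and TubA-10 against GV, and the TubA-10 median became 0.17. With equal FPKM sums, 1 was lower in MII against GV, and the TubA-10 against MII median was −0.01. With the median change set to 0, 0 were higher in TubA-20 against GV. At 3-fold, 1 was lower against GV in each of MII, TubA-10 and TubA-20, 0 were higher in TubA-20, and 0 were lower in TubA-20 against MII and against TubA-10. The percent of all genes past 2-fold depends on the filter, since fewer genes are tested. With at least 1 and 5 FPKM it was 6.28 and 8.26 higher and 17.2 and 20.8 lower in MII against GV, 1.53 and 1.77 higher and 11.6 and 14.2 lower in TubA-10 against GV, and 15.5 and 20.2 higher and 23.9 and 26.8 lower in TubA-20 against GV. It was 1.10 and 1.29 higher and 0.271 and 0.206 lower in TubA-10 against MII, 0.700 and 0.542 higher and 5.21 and 6.09 lower in TubA-20 against MII, and 1.40 and 1.45 higher and 11.7 and 14.1 lower between doses. In the storage and repression list, 0, 6, 4 and 7 genes rose in MII with median change set to 0, equal sums, equal upper quartiles and equal *Gapdh*, 2 rose in TubA-20 against GV with median change set to 0, and the median in TubA-20 against MII was 0.00, −0.02, −0.01 and −0.03. Translated mRNAs that rose in MII were 5 with equal sums and 5 with equal *Gapdh*. In the polyadenylation machinery, with median change set to 0, 0 rose in MII, 1 rose in TubA-20 and the TubA-20 median was −1.10. With equal sums, equal upper quartiles and equal *Gapdh*, 2, 2 and 2 of its genes were lower in TubA-20 than in MII. These scalings shift each library by a constant, which is what moves the counts. Taking the highest entry of a symbol or leaving out mitochondrial genes gave the same values. No paired analysis was possible because each condition had 1 library, which also leaves no replicate to leave out. Depth limits *Zfp36l2* most.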
